A study of Mus musculus with 9 samples.

Results

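The genes described here encode the subunits of the respiratory chain and of ATP synthase, and include both the nuclear genes and the 13 messenger RNAs made inside mitochondria. They were taken by symbol from the deposited table of normalized counts: the Nduf genes of complex I, Sdha to Sdhd of complex II, the Uqcr genes of complex III, the numbered Cox4 to Cox8 genes of complex IV, the Atp5 genes of complex V (ATP synthase) and the mt-Nd, mt-Co, mt-Atp and mt-Cytb genes. The rule found 106 of 56748 genes, of which 83 were nuclear, 13 mitochondrial and 10 carried pseudogene symbols. By complex, the nuclear genes numbered 37 in I, 4 in II, 8 in III, 16 in IV and 18 in V, and the mitochondrial ones 7 in I, 1 in III, 3 in IV and 2 in V. Of these, 97 reached 10 normalized counts in 3 or more of 9 libraries and were tested, which were 78 nuclear genes, all 13 mitochondrial genes and 6 pseudogenes. The 5 untested nuclear genes were Cox6a2, Cox7b2, Cox8b, Cox8c and an Atp5o entry (ENSMUSG00000116933) that had 0 reads in every library.

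The cells were primary basal stem cells of the airway, isolated from the trachea of wild-type (WT) mice, and all groups were grown at an air-liquid interface (ALI), where cells sit on a membrane with medium below and air above. Libraries of total RNA were sequenced on day 1, day 3 and day 5, with 3 libraries a day. The submitters describe these days as basal cell proliferation, stratification and luminal cell specification. The labels give no age of the animals and tie no replicate to a culture or animal. The p-values therefore reflect the spread between these libraries alone, and that spread may be technical.

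Complexes I and II pass electrons from NADH and succinate to coenzyme Q, complex III passes them to cytochrome c, and complex IV passes them to oxygen. Complexes I, III and IV pump protons across the inner mitochondrial membrane, and ATP synthase uses the gradient to make ATP. Most subunits are encoded in the nucleus, made in the cytosol and imported, while mitochondrial DNA encodes a few hydrophobic core subunits of complexes I, III, IV and V and none of complex II. In the airway, basal cells are the stem cells, and multiciliated cells, which carry many mitochondria below the beating cilia, are among their products.

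Depth was 16.4 to 35.1 M reads per library, with means of 30.8, 21.9 and 17.6 M on days 1, 3 and 5. Replicates of a day differed beyond counting noise in all 9 pairs (chi-square per degree of freedom 7.81 to 49.1). Summed basal and epithelial markers (6 of 6 detected on each day) reached 230062 to 245033, 381359 to 436049 and 218376 to 298694 normalized counts on days 1, 3 and 5. The list did not move together. Krt15 went from 58527 to 65730 on day 1 to 269282 to 324278 on day 3, and Epcam was also higher. Krt5, Krt14, Trp63 and Cdh1 were lower in every day 3 library than in every day 1 library. The muscle, fibroblast, leukocyte, endothelial and brown fat lists reached at most 65.4, 130.5, 28.6, 23.7 and 23.04. The multiciliated markers Foxj1, Tppp3 and Dnah5 summed to 15.8 to 23.7, 96.7 to 129 and 4462 to 5439.6 in the same order, with Dnah5 at 0 on days 1 and 3. The 4 Y-linked genes measured summed to 3027 to 3253, 299.9 to 348 and 401 to 575. Xist lay at 1548 to 2018, 5416 to 6346 and 6116 to 8698, so day and the sex makeup of the cells cannot be told apart.

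Reads on the nuclear genes took the largest share on day 3, and reads on the mitochondrial genes on day 5. The 83 nuclear genes took 0.879, 0.827 and 0.833% of all reads of the libraries on day 1, 1.76, 1.76 and 1.49% on day 3 and 0.882, 1.07 and 1.2% on day 5. All day 3 libraries lay above all others, and day 5 replicate 1 was the closest of its day to the day 1 libraries, just above them. The 13 mitochondrial genes took 3.31, 3.13 and 3.17% on day 1, 2.45, 2.52 and 3.14% on day 3 and 6.31, 6.51 and 5.74% on day 5. Here all day 5 libraries lay above all others, while day 3 replicate 3 fell inside the day 1 range and the other day 3 libraries lay below it. The ratio of mitochondrial to nuclear reads was therefore 3.76 to 3.8 on day 1, 1.39 to 2.11 on day 3 and 4.79 to 7.16 on day 5. These values describe whole cultures, in which fewer cells of a type and less RNA per cell cannot be told apart. The share of the 83 cytosolic ribosomal protein genes moved alongside that of the nuclear subunits, at 5.11 to 5.49%, 10.6 to 13.2% and 4.49 to 7.0% on days 1, 3 and 5, and its part in the result was not tested.

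**Figure D1:**
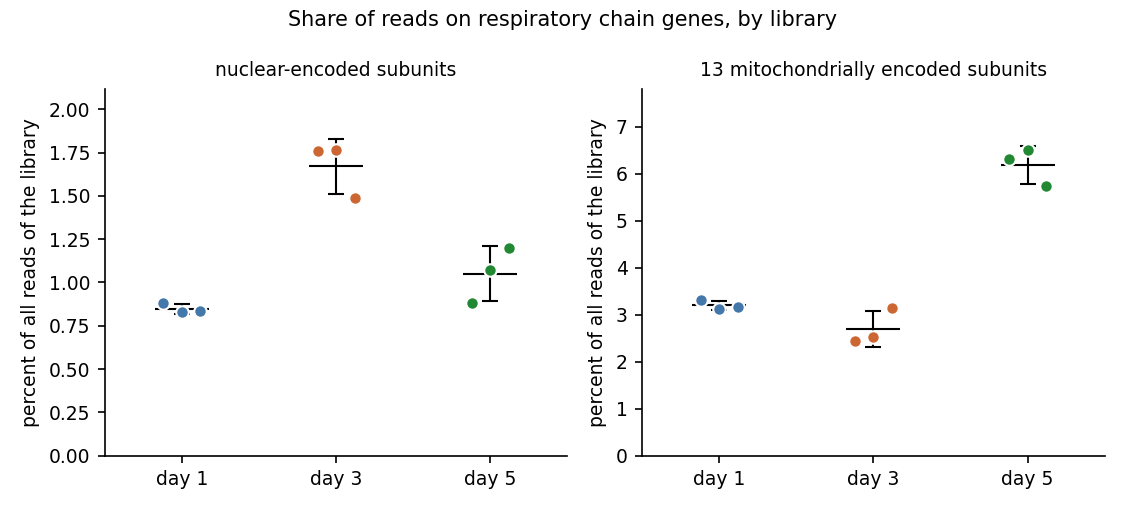
Percent of all reads of each library (y axis) on the 83 nuclear-encoded genes (left) and the 13 mitochondrially encoded genes (right) on days 1, 3 and 5. Points are libraries, and the bar and whiskers give the mean ± SD of 3 libraries. Nuclear shares peak on day 3 at 1.49 to 1.76%, and mitochondrial shares peak on day 5 at 5.74 to 6.51%.

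Most nuclear genes of complexes I, III, IV and V rose from day 1 to day 3, and 2 of 4 of complex II did. Of the 78 tested, 70 rose and 3 fell (limma, Benjamini-Hochberg adjusted p under 0.05 over 17338 genes), where 36.1% of all tested genes rose and 37% fell. Their median log2 change was 1.64, against 0.0034 over all tested genes, on the scale of log2(normalized count + 1) used for every change below. In 72 of 78 genes every day 3 library lay above every day 1 library, as it did in 37.9% of all tested genes. From day 3 to day 5 the direction turned: 73 fell and 1 rose, against 32.4% and 34.8% of all tested genes, with a median of −1.09 against 0.055. Both steps use the same day 3 libraries, so they are not independent of each other. Over the whole course, day 5 against day 1, 39 rose and 4 fell (background 36.7% and 37.7%), with a median of 0.44 against −0.056. Over all 97 tested genes, pseudogenes included, 87, 89 and 55 were called in either direction in these comparisons (background 73%, 67.3% and 74.5%), and 90 on day 3 against the mean of days 1 and 5 (background 70.7%).

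One library on each of the later days was the lowest in most of these genes. Day 3 replicate 3 was the lowest of its day in 70 of 78 nuclear genes, and day 5 replicate 1 was the lowest of its day in 75. These libraries also had the lowest ribosomal protein share of their day, at 10.6 and 4.49%. The median of the shortest 10% minus that of the longest 10% of all tested genes was also lowest there, at 0.75 and −1.08. Whether the low ranks are particular to the subunit genes was not tested. Without day 3 replicate 3, 71 nuclear genes rose and 3 fell from day 1 to day 3 (median 1.79). Without day 5 replicate 1, 71 fell and 1 rose from day 3 to day 5 (median −0.87), and 56 rose and 3 fell from day 1 to day 5 (median 0.66). The same comparison gave 30 higher and 4 lower without day 5 replicate 2 (median 0.38), and 30 and 5 without day 5 replicate 3 (median 0.28). With all libraries and quantile normalization its median was 0.77.

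**Figure D2:**
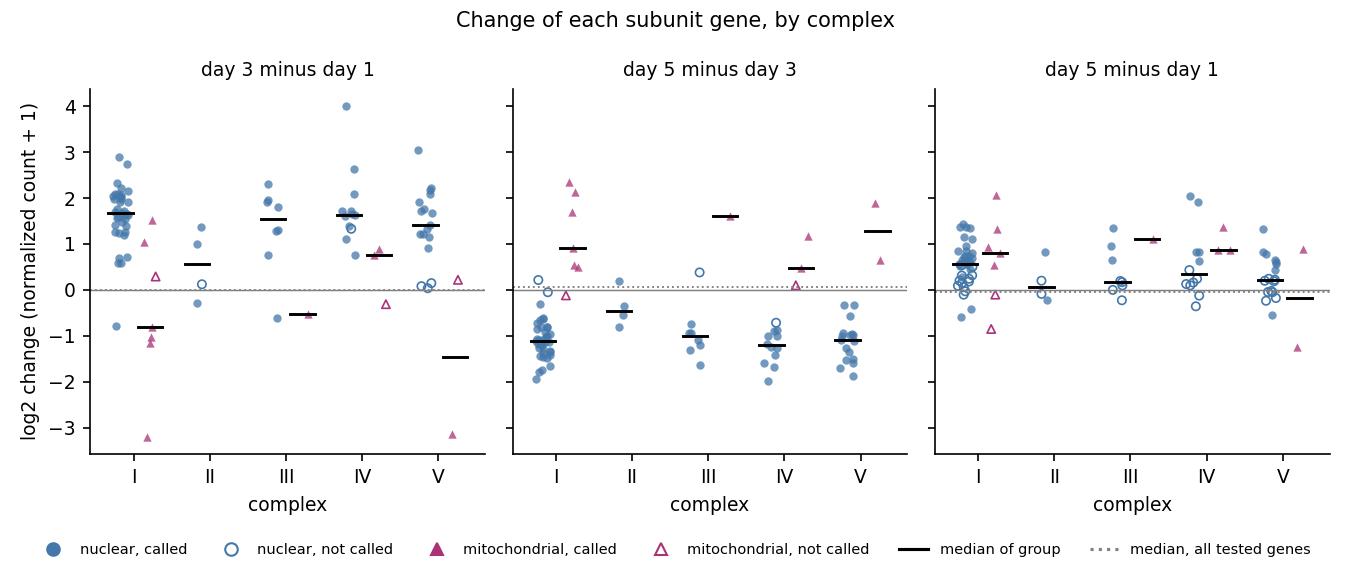
Log2 change of each tested subunit gene (y axis) by complex (x axis) for the 3 comparisons, with circles for nuclear and triangles for mitochondrial genes. Filled symbols passed the limma test, black bars are group medians and the dotted line is the median of all tested genes. Nuclear genes lie mostly above 0 at day 3 minus day 1 and below 0 at day 5 minus day 3, whereas 11 of 13 mitochondrial genes rose at day 5 minus day 3.

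Nearly all nuclear genes of complex I, the entry point for electrons from NADH, rose to day 3. From day 1 to day 3, 36 of its 37 nuclear genes rose and 1 fell (background 36.1% and 37%), with a median of 1.68. The 30 supernumerary subunits, which surround the catalytic core, all rose (median 1.74), and of the 7 nuclear core subunits, which carry the flavin and the iron-sulfur clusters, 6 rose (median 1.42). Per kilobase of transcript, the median nuclear complex I gene had 1277 ± 18.7 normalized counts on the first of these days, 3893 ± 525 on the second and 1911 ± 479 on the third (mean ± SD of 3 library medians). From day 3 to day 5, 35 of the 37 fell and none rose (median −1.12, background 32.4% and 34.8%).

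The exception in complex I was Ndufs1 (ENSMUSG00000025968), the largest core subunit of the NADH-oxidising arm. It stood at 1860.0, 1967 and 1853 normalized counts in the day 1 libraries, 1022, 1042 and 1216 in those of day 3, and 1394, 1264 and 1149 in those of day 5. Every day 3 and day 5 library lay below every day 1 library, and days 3 and 5 overlapped. Ndufs1 fell from day 1 to day 3 (log2 change −0.80, SE 0.10, adjusted p = 4.6e-05) and was also lower on day 5 than on day 1 (log2 change −0.58, adjusted p = 0.00040). From day 3 to day 5 its log2 change was 0.22 (adjusted p = 0.084), a difference that passed with quantile normalization or scaling to the total, and without day 3 replicate 3 or day 5 replicate 3 (adjusted p = 0.032 and 0.037).

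Ndufa4, named for complex I and also known as a subunit of complex IV, had the highest normalized counts of the nuclear complex I genes on each day. Its values were 4661, 4318 and 4112 normalized counts in the day 1 libraries, 16179, 14654 and 10519 in those of day 3, and 4090.5, 5529.7 and 7069 in those of day 5. Day 3 lay above both other days, which overlapped, and the rise to day 3 (log2 change 1.64, SE 0.20, adjusted p = 3.4e-05) was followed by a fall (log2 change −1.32, SE 0.20, adjusted p = 0.00024). Ndufa2, an accessory subunit of the same arm as Ndufs1, had the largest rise of complex I, from 1096 ± 112 to 8425 ± 2339.5 (SD, n = 3), or 7.69 times (log2 change 2.90, SE 0.27, adjusted p = 5.8e-06). On day 5 it was at 2562 ± 936, with every library above every day 1 library. Ndufs6, which helps to complete complex I assembly, had the largest fall of complex I from day 3 to day 5, from 6229, 5499 and 3886 to 896, 1455 and 1778 (log2 change −1.95, SE 0.23, adjusted p = 4.8e-05), and its day 5 values overlapped those of day 1 (1248, 1293 and 1192).

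On day 5, 18 of the 30 supernumerary subunits stood above day 1 and 1 below it (background 36.7% and 37.7%), with a median of 0.59. Ndufa6, with the largest rise from day 1 to day 5 among the nuclear complex I subunits, was at 685, 628 and 683 normalized counts in the day 1 libraries, 3004, 3191 and 2408 in those of day 3, and 1356, 1997 and 2155 in those of day 5. The 3 days did not overlap, with day 5 between days 1 and 3. It was higher on day 5 than on day 1 (log2 change 1.44, SE 0.17, adjusted p = 1.9e-05), and its fall from day 3 (log2 change −0.66, adjusted p = 0.0055) did not pass with quantile normalization or with scaling to the total and turned into a rise with the length and GC trend removed (log2 change 0.33, adjusted p = 0.042). Ndufb11, a membrane arm subunit, went from 1039 ± 55.8 on day 1 to 4154 ± 612 on day 3 and 2748 ± 762 on day 5, also without overlap (log2 change 1.36, adjusted p = 6.9e-05 for day 5 against day 1). Its fall from day 3 to day 5 (log2 change −0.63, adjusted p = 0.014) did not pass with quantile normalization, scaling to the total or the length and GC trend removed (log2 changes −0.23, −0.29 and −0.17), nor without day 3 replicate 1 or 2 (adjusted p = 0.051 and 0.051), and it was −0.39 without day 5 replicate 1. Ndufb6 also rose to day 3 (log2 change 0.72, adjusted p = 0.0015), at 799 ± 46.9, 1314 ± 18.1 and 611 ± 144 on the 3 days, but ended below day 1 (log2 change −0.41, adjusted p = 0.032). That fall did not pass without day 1 replicate 1, day 1 replicate 3 or day 5 replicate 1 (log2 change −0.41 to −0.21, adjusted p = 0.056 to 0.090). It did not pass with quantile normalization (log2 change −0.28, adjusted p = 0.17) or the length and GC trend taken out (log2 change −0.055, adjusted p = 0.65) either. Exons of Smim27 on the opposite strand cover 51.4% of the last 500 bases of Ndufb6, and no source used here states whether counting used strand, so this gene is uncertain.

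Complex II (succinate dehydrogenase), the complex with no mitochondrial subunit, had a mixed response among its 4 genes. Sdha, the flavoprotein that oxidises succinate, was at 4014, 4378 and 4205 normalized counts in the day 1 libraries, 3389, 3523 and 3385 in those of day 3, and 4025, 3998 and 3831 in those of day 5. All day 3 libraries lay below all of days 1 and 5. Sdha fell at day 3 by 0.29 on the log2 scale (SE 0.08, adjusted p = 0.0059) and rose again at day 5 (log2 change 0.20, adjusted p = 0.038). The fall did not pass with the length and GC trend removed (log2 change −0.072, adjusted p = 0.33). The second step did not pass without day 1 replicate 1, day 1 replicate 3, day 3 replicate 1, day 3 replicate 2, day 3 replicate 3 or day 5 replicate 2 (log2 change 0.19 to 0.22, adjusted p = 0.054 to 0.10). Nor did that step pass with no filter on low values (log2 change 0.20, adjusted p = 0.086) or with that trend removed (log2 change −0.075, adjusted p = 0.32).

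Sdhb, the iron-sulfur subunit, was at 1606, 1690.5 and 1603 normalized counts in the day 1 libraries, 3445, 3339 and 3096 in those of day 3, and 1527, 1956 and 2214 in those of day 5. Day 3 lay above both other days, which overlapped, and the gene rose (log2 change 1.01, SE 0.12, adjusted p = 3.5e-05) and fell (log2 change −0.81, SE 0.12, adjusted p = 0.00026). Sdhc, one of the membrane anchors, was at 1620.0, 1628 and 1615 normalized counts in the day 1 libraries, 4113, 4339 and 4219.6 in those of day 3, and 2471, 3100.4 and 3090.2 in those of day 5. Its 3 days did not overlap, and it stayed above day 1 on day 5 (log2 change 0.82, SE 0.10, adjusted p = 2.2e-05). Sdhd, the other anchor, was at 2535, 2579.8 and 2516 normalized counts in the day 1 libraries, 2680.4, 2819.7 and 2811 in those of day 3, and 2013, 2236 and 2299 in those of day 5. Its day 3 libraries lay above day 1, yet the difference did not pass (log2 change 0.12, adjusted p = 0.19), and its fall from day 3 to day 5 (log2 change −0.35, adjusted p = 0.0034) did not pass with quantile normalization or with scaling to the total.

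**Figure D3:**
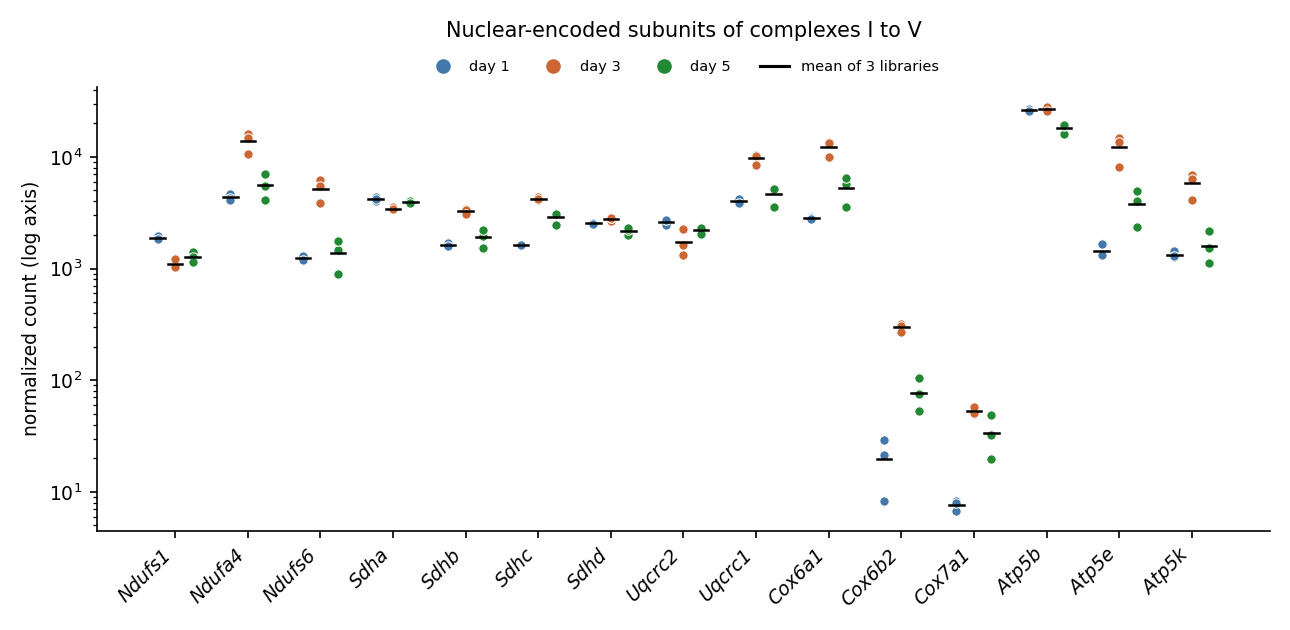
Normalized counts on a log axis (y) of 15 nuclear subunit genes (x) from complexes I to V, with a point for each library, colours for days and a black bar for the mean of 3 libraries. Most genes are highest on day 3, and Ndufs1, Sdha and Uqcrc2 have their highest mean on day 1. Atp5b has the highest normalized counts of those drawn.

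Complex III passes electrons from coenzyme Q to cytochrome c. Of its 8 nuclear genes, 7 rose to day 3 and 1 fell (median 1.55, background 36.1% and 37%). The 5 small subunits all rose (median 1.90) and all fell by day 5 (median −1.21, background 32.4%). With the length and GC trend removed, 2 of these 5 fell by day 5 (median −0.18). In the whole complex, 4 of 8 nuclear genes then fell, in place of 7. At that step the median of all tested genes up to 500 bases was −1.22 without removal of the trend. Uqcrc1, one of the core proteins, was at 3881, 4232 and 3851 normalized counts in the day 1 libraries, 10329.6, 10237 and 8484 in those of day 3, and 3554, 5129.5 and 5192 in those of day 5. Day 3 lay above the other days, which overlapped (log2 change 1.28, SE 0.15, adjusted p = 2.3e-05 for day 3 against day 1). Its partner Uqcrc2 moved in the opposite direction, at 2582, 2465 and 2732 normalized counts in the day 1 libraries, 1334, 1636 and 2257 in those of day 3, and 2304, 2303 and 2049 in those of day 5. All day 3 libraries lay below day 1, and days 3 and 5 overlapped. Uqcrc2 fell from day 1 to day 3 (log2 change −0.61, SE 0.16, adjusted p = 0.0057), and its step to day 5 was 0.38 (adjusted p = 0.056), which passed with quantile normalization, with scaling to the total and without day 3 replicate 3 (the last at log2 change 0.58, adjusted p = 0.0018). Exons of Pdzd9 on the opposite strand cover 100% of the last 500 bases of Uqcrc2, so its count is uncertain.

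Complex IV (cytochrome c oxidase) had 12 tested nuclear genes, of which 11 rose to day 3 and none fell (median 1.64, background 36.1% and 37%). Cox6a1, the one with the highest mean normalized count over the 9 libraries, was at 2897, 2841 and 2785 normalized counts in the day 1 libraries, 13529.7, 13315 and 9992 in those of day 3, and 3538, 5692 and 6468 in those of day 5. The 3 days did not overlap, and Cox6a1 rose to day 3 (log2 change 2.10, SE 0.20, adjusted p = 6.6e-06), fell to day 5 (log2 change −1.26, SE 0.20, adjusted p = 0.00032) and stayed above day 1 (log2 change 0.84, adjusted p = 0.0032). Several subunits of this complex exist in tissue-specific forms, and the widely expressed form dominated each pair. Cox6a2, the heart and muscle form, had reads in 1 library only (day 5 replicate 3, 2.46 normalized counts), Cox8b had reads in 2 day 1 libraries at up to 1.66, and Cox8c had none. Cox8a, the widespread form, was at 3316 ± 60.1, 10998 ± 1063 and 5968 ± 1322 on days 1, 3 and 5. It was higher than on day 1 both on day 3 (log2 change 1.73, adjusted p = 3.9e-06) and on day 5 (log2 change 0.82, adjusted p = 0.00054).

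The minor forms Cox6b2 and Cox7a1 had larger log2 changes from day 1 to day 3 than their widespread partners and stayed a small share of each pair. Cox6b2, known as the testis form of the subunit that faces cytochrome c, was at 29.2, 8.3 and 21.2 normalized counts in the day 1 libraries, 319.8, 304 and 268 in those of day 3, and 52.5, 74.9 and 105 in those of day 5. Day 3 lay above the other days, and day 5 above day 1. The change to day 3 was the largest of all nuclear subunits (log2 change 4.02, SE 0.40, adjusted p = 8.6e-06), followed by a fall (log2 change −1.98, SE 0.40, adjusted p = 0.0015). Cox6b1, the widespread form, was at 3436 ± 180.3, 10930.1 ± 2045 and 4163 ± 1081 on the 3 days (log2 change 1.65, adjusted p = 2.3e-05). Cox6b2 thus made up 0.799, 0.254 and 0.616% of the normalized counts of the pair on day 1, 2.48, 2.56 and 3.01% on day 3 and 1.72, 1.68 and 2.0% on day 5. Cox7a1, the heart and muscle form, was at 6.78, 8.3 and 7.88 normalized counts in the day 1 libraries, 49.96, 50.9 and 57.2 in those of day 3, and 19.8, 32.3 and 49.2 in those of day 5. It rose to day 3 (log2 change 2.63, SE 0.33, adjusted p = 3.9e-05) and made up at most 1.73% of its pair with Cox7a2 in any library. Muscle markers summed to 9.96 to 12.9, 12.05 to 21.7 and 55.5 to 65.4 on the 3 days (4, 5 and 3 of 6 detected), with Ckm at 0 on days 3 and 5 and Des and Tnnt3 at 0 on days 1 and 5, and their part in Cox7a1 was not tested. Cox7a2, the widespread form, was at 1913 ± 217 on day 1 and 6296 ± 1009 on day 3 (log2 change 1.71, adjusted p = 3.3e-05). Cox7a2 fell from day 3 to day 5 (log2 change −1.58, adjusted p = 9.2e-05), while the change of Cox7a1 did not pass (log2 change −0.72, adjusted p = 0.077). The share of Cox7a1 in the pair was 0.852 ± 0.213% on day 3 and 1.5 ± 0.207% on day 5. The 1 gene of this complex that did not pass at day 3 was Cox6c2 (log2 change 1.33, adjusted p = 0.052), a near-copy of Cox6c whose reads may be split between both and which was named after its values were seen.

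In ATP synthase, 14 of 17 tested nuclear genes rose to day 3 and none fell (median 1.41, background 36.1% and 37%). All 17 fell by day 5 (median −1.09, background 32.4%). The 3 that did not pass at day 3 included both subunits that form the catalytic hexamer. Atp5b, the catalytic beta subunit, had the highest mean normalized count of the nuclear genes of the chain, with no scaling to transcript length. It was at 26027, 26658 and 25919 normalized counts in the day 1 libraries, 26735, 28015 and 25910.4 in those of day 3, and 16187, 19044 and 19105 in those of day 5. Days 1 and 3 overlapped (log2 change 0.037, SE 0.11, adjusted p = 0.79), and all day 5 libraries lay below them (log2 change −0.57, adjusted p = 0.0012). That fall turned into a rise with quantile normalization (log2 change 0.25, adjusted p = 0.040), and the day 3 value was lower than day 1 with quantile normalization, scaling to the total or the length and GC trend removed. Atp5a1, the alpha subunit, was at 19232 ± 682, 20345 ± 687 and 16333 ± 1009.7 on the 3 days (log2 change 0.081, adjusted p = 0.49). Atp5pb, a peripheral stalk subunit, was the third (log2 change 0.15, adjusted p = 0.20), and it and Atp5a1 were named after their values were seen.

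Atp5e, the epsilon subunit of the central stalk, rose most in ATP synthase. It was at 1657, 1347 and 1331 normalized counts in the day 1 libraries, 14902, 13579 and 8133 in those of day 3, and 2357, 4059 and 4990.4 in those of day 5. No day overlapped another, and the mean of day 3 was 8.45 times that of day 1 (log2 change 3.04, SE 0.28, adjusted p = 5.1e-06). Atp5e and Atp5b, with the largest and the smallest change of the 17 genes, are subunits of the same F1 part. The 5 small membrane subunits all rose (median 1.91, background 36.1%) and all fell (median −1.26, background 32.4%). Among them Atp5k, the e subunit at the interface between synthase dimers, was at 1431, 1259.6 and 1287 normalized counts in the day 1 libraries, 6932, 6368 and 4110.0 in those of day 3, and 1111, 1515 and 2189 in those of day 5. Days 1 and 5 overlapped, and it fell from day 3 to day 5 (log2 change −1.87, SE 0.24, adjusted p = 7.7e-05).

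The rotating c-ring is encoded by 3 genes whose mature protein is the same. All 3 rose to day 3, with log2 changes of 1.34 for Atp5g1, 1.21 for Atp5g2 and 0.92 for Atp5g3 (adjusted p = 0.00015, 2.1e-05 and 0.00033), and all 3 fell to day 5, Atp5g2 not passing with the length and GC trend removed (log2 change −0.056, adjusted p = 0.66). None differed between days 1 and 5 beyond the test. Atp5g2 passed there with quantile normalization, scaling to the total or the trend removed, and without day 5 replicate 1 (the last at log2 change 0.37, adjusted p = 0.0052). Per kilobase, Atp5g3 gave 59.2 ± 1.39% of the summed level of the 3 genes on day 1 and 54.02 ± 0.942% on day 3. Atp5g2 gave 36.5 ± 1.35% and 40.8 ± 1.29%, and Atp5g1 lay between 4.09 and 5.23% on average on each day. These shares depend on the lengths used, 2676 bases for Atp5g1, 586 for Atp5g2 and 718.5 for Atp5g3. By normalized counts, Atp5g1 made up 21.2 ± 0.568, 26.4 ± 1.73 and 21.6 ± 1.5% of its pair with Atp5g3 on days 1, 3 and 5. Of the 6 tested pseudogenes, 3 rose and 1 fell to day 3 (background 36.1% and 37%). They share sequence with Atp5k, Atp5l, Atp5pb and Uqcrh, so their reads may come from those genes.

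Promoters were read for 68 of the 83 nuclear genes from RefSeq (GRCm38.p6, 250 bases before to 50 after the start), because these genes rose together and because NRF1, ETS factors such as GABP, and YY1 are known regulators of respiratory chain genes. Exact 7-letter cores were searched on both strands: GCATGCG (reverse CGCATGC) for NRF1, CCGGAAG (reverse CTTCCGG) for ETS factors and ATGGCGG (reverse CCGCCAT) for YY1. These cores were shortened after longer versions had been searched, so the shares that follow are descriptions only. The NRF1 core can match both strands at nearly the same place, and no match of one factor overlapped that of another in these promoters. Atp5c1, Atp5d, Atp5j, Ndufa5 and Ndufa7 had more than 1 window, and a gene counted when any of its windows held the core. The NRF1 core was found in 11 of 68 genes (16.2%), against 4.01% of all 27025 genes with a promoter and 6.73% of the 11366 tested ones. That of ETS factors was in 17 (25%), against 9.93% and 18.9%. That of YY1 was in 10 (14.7%), against 4.69% and 8.69%. Of the genes with the YY1 core, 8 belong to complex I and 2 to ATP synthase. In Atp5b, Ndufa9, Ndufb5, Ndufs4, Ndufs6 and Ndufs7 this core lies 15 to 38 bases after the start, inside the transcript. Its letters hold ATG, and a part of protein start codons in these matches was not tested. Changes from day 1 to day 3 of the tested members had medians of 1.91 with and 1.65 without the NRF1 core, 1.71 and 1.64 for ETS, and 1.57 and 1.67 for YY1, with ranges that overlapped in each case. A match describes letters in the window and is not a shown binding site. The promoters of Cox6a1 and Atp5k, genes that rose and hold an NRF1 and an ETS core each, are printed with the matches in capitals. Those of Ndufs6, which rose, and Atp5b, which did not pass at day 3, follow, and each holds a YY1 core just after the start.
Cox6a1 (chr5:115348909-115349208, - strand): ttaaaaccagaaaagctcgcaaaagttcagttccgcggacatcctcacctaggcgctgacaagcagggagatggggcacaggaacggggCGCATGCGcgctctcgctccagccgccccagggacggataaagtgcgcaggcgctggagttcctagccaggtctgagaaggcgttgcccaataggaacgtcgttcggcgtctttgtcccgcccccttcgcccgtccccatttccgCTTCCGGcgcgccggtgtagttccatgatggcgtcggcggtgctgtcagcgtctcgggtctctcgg
Atp5k (chr5:108434350-108434649, - strand): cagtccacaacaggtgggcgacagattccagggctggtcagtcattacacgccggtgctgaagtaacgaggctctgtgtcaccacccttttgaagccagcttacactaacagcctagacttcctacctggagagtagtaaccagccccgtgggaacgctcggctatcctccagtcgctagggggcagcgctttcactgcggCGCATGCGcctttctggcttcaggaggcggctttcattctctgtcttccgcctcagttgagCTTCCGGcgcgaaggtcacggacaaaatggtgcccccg
Ndufs6 (chr13:73328433-73328732, - strand): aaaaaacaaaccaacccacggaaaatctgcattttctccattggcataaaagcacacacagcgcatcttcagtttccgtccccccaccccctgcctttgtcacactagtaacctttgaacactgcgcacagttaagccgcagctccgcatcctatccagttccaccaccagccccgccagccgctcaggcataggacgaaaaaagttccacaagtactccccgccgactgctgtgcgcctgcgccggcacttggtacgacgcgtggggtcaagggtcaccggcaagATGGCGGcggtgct
Atp5b (chr10:128083057-128083356, + strand): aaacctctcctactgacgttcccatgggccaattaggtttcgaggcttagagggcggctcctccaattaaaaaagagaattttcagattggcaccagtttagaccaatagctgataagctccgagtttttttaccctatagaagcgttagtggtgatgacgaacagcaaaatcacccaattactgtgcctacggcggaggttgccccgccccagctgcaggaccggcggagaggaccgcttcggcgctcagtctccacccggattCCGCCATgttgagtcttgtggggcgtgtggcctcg

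The 13 mitochondrial messenger RNAs come from a circular genome that is transcribed as long precursors from both strands, from which tRNAs are cut out to free the messengers. From day 1 to day 3 they moved apart: 4 rose, 6 fell and 3 did not pass (background 36.1% and 37%), with a median of −0.31 against 1.64 for nuclear genes, and the split became 6 against 4 with the length and GC trend removed. From day 3 to day 5, 11 rose and none fell (background 34.8% and 32.4%, median 0.92), and against day 1, 10 of 13 were higher on day 5 and 1 was lower (background 36.7% and 37.7%, median 0.87). With quantile normalization that last median was 0.27, and mt-Nd2, mt-Co1, mt-Co2, mt-Atp6 and mt-Cytb did not pass. With the length and GC trend removed it was 1.34, with 10 higher and none lower. Without day 3 replicate 3, 5 rose and 6 fell to day 3 (median −0.46). The multiciliated markers given above rose alongside on day 5, and their part in the mitochondrial rise was not tested.

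Per kilobase, mitochondrial messengers stood far above the nuclear ones. The median mitochondrial gene was 29.4, 35.5 and 30.9 times the median nuclear gene in the day 1 libraries, 6.08, 6.77 and 10.4 times in the day 3 libraries and 36.1, 30.2 and 23.7 times in the day 5 libraries. The day 3 libraries lay below all others, and days 1 and 5 overlapped. Within complex I, where both genomes contribute several subunits, the median mitochondrial gene was at 23837 ± 1596, 21526 ± 2441 and 43888 ± 2008 normalized counts per kilobase on days 1, 3 and 5.

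Among the complex IV messengers, mt-Co1 and mt-Co2 had the highest mean levels per kilobase of the 13 on days 1 and 5, and mt-Co2 on day 3. mt-Co1, which carries the oxygen-reducing site, was at 225742, 203155 and 224811 normalized counts in the day 1 libraries, 152163, 163875 and 216758 in those of day 3, and 400764, 434088 and 353347 in those of day 5. Day 3 overlapped day 1 (log2 change −0.31, adjusted p = 0.27), a difference that passed as a fall with quantile normalization (log2 change −1.13, adjusted p = 0.00023) or scaling to the total (log2 change −0.58, adjusted p = 0.027), and day 5 lay above both (log2 change 1.17, SE 0.24, adjusted p = 0.0018 against day 3). mt-Co2, which receives electrons from cytochrome c, was at 89510.4, 86697 and 84363 normalized counts in the day 1 libraries, 150660.0, 142686 and 150403 in those of day 3, and 127840.0, 182500.0 and 170871 in those of day 5. It rose to day 3 (log2 change 0.77, SE 0.20, adjusted p = 0.0048), days 3 and 5 overlapped, and the rise was −0.16 (adjusted p = 0.29) with quantile normalization. mt-Co3 was at 50997, 48595 and 48618 normalized counts in the day 1 libraries, 88119, 92709 and 94549 in those of day 3, and 105745, 143659 and 139082 in those of day 5. Its days did not overlap, and it rose at both steps (log2 change 0.89, SE 0.17, adjusted p = 0.00079, then log2 change 0.48, adjusted p = 0.029), though the first did not pass with quantile normalization (log2 change 0.095, adjusted p = 0.54). The second step did not pass without day 1 replicate 3, day 3 replicate 1, day 3 replicate 2, day 5 replicate 2 or day 5 replicate 3 (log2 change 0.40 to 0.49, adjusted p = 0.055 to 0.10). Quantile normalization gives every library the same set of values, and mt-Co1 had a change of 0 from day 1 to day 5 in that setting.

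On day 3 mt-Co2 stood at 216252 normalized counts per kilobase and mt-Co1 at 114950.0, whereas on day 1 they stood at 126984 and 141037 and on day 5 at 234508 and 256353. As a share of the 13 messengers, mt-Co1 held 31.9 ± 2.08% on day 1, 25.5 ± 2.73% on day 3 and 31.3 ± 2.05% on day 5. The share of mt-Co2 was 12.7 ± 0.252%, 21.4 ± 1.58% and 12.7 ± 1.83%. For both genes the means of days 1 and 5 lay closer to each other than to day 3, and mt-Co2 was the gene with the highest level per kilobase on day 3 only.

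**Figure D4:**
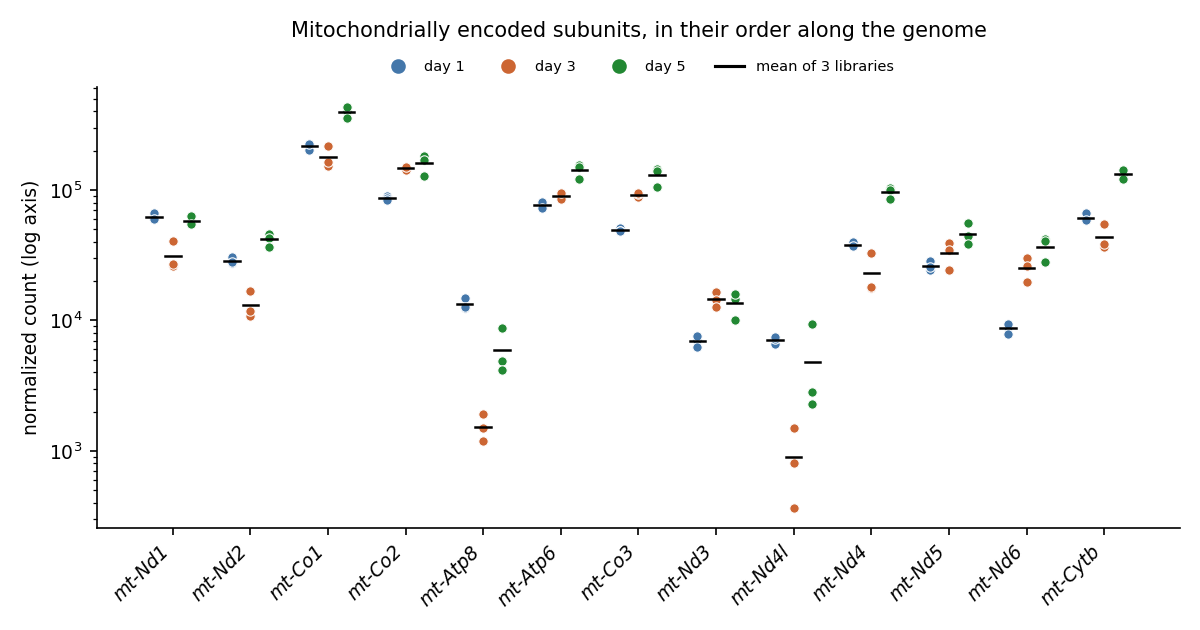
Normalized counts on a log axis (y) of the 13 mitochondrially encoded genes in their genome order (x), with a point for each library, colours for days and a black bar for the mean of 3 libraries. mt-Atp8 and mt-Nd4l have their lowest values on day 3, at 1193 to 1921 and 367 to 1507.

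The largest falls to day 3 were those of mt-Atp8 and mt-Nd4l. mt-Atp8 and mt-Atp6, both of the membrane part of ATP synthase, are read from 1 messenger with overlapping frames, and so are mt-Nd4l and mt-Nd4 of complex I. mt-Atp8 (ENSMUSG00000064356) was at 14807, 12540.1 and 12744 normalized counts in the day 1 libraries, 1921, 1193 and 1486 in those of day 3, and 8729.9, 4896 and 4126 in those of day 5. It fell by 3.15 on the log2 scale (SE 0.25, adjusted p = 2.4e-06) and rose by day 5 to a level below day 1 (log2 change 1.90, SE 0.25, adjusted p = 9.8e-05). The difference between days 5 and 1 (log2 change −1.25, adjusted p = 0.0011) did not pass once the length and GC trend was taken out (log2 change −0.37, adjusted p = 0.21). mt-Atp6 was at 77862, 80997 and 72639.7 normalized counts in the day 1 libraries, 89128, 85287 and 95147 in those of day 3, and 121863, 156659 and 149909 in those of day 5. Its day 3 libraries lay above day 1 without passing the test (log2 change 0.22, adjusted p = 0.28), and that difference was a called fall with quantile normalization (log2 change −0.75, adjusted p = 0.0010) and near 0 with scaling to the total (log2 change −0.049, adjusted p = 0.76). It was a called rise with the length and GC trend taken out (log2 change 0.48, adjusted p = 0.029). mt-Atp8 thus took 15.98, 13.4 and 14.9% of the normalized counts of the pair on day 1, 2.11, 1.38 and 1.54% on day 3 and 6.68, 3.03 and 2.68% on day 5, in 3 ranges that did not overlap.

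mt-Nd4l was at 6546, 7242 and 7451 normalized counts in the day 1 libraries, 367, 810.0 and 1507 in those of day 3, and 9336, 2831 and 2278 in those of day 5. All day 3 libraries lay below all others, and day 5 replicate 1 stood far above the other day 5 libraries and overlapped day 1. The fall to day 3 was 3.21 on the log2 scale (log2 change −3.21, SE 0.54, adjusted p = 0.00032), with a rise to day 5 (log2 change 2.35, SE 0.54, adjusted p = 0.0032). Day 5 against day 1 passed only without day 5 replicate 1 (log2 change −1.48, adjusted p = 0.014). mt-Nd4 was at 37524, 39699 and 37211 normalized counts in the day 1 libraries, 17794, 17917 and 33079.6 in those of day 3, and 103527, 100047 and 85419 in those of day 5. It fell less (log2 change −0.80, SE 0.23, adjusted p = 0.0083) before it rose above day 1 (log2 change 1.33, SE 0.23, adjusted p = 0.00031). The share of mt-Nd4l in its pair was 14.9, 15.4 and 16.7% on day 1, 2.02, 4.33 and 4.36% on day 3 and 8.27, 2.75 and 2.6% on day 5. The fall of mt-Nd4 no longer passed after removal of the length and GC trend (log2 change −0.48, adjusted p = 0.067), while those of mt-Atp8 (log2 change −2.77, adjusted p = 4.2e-06) and mt-Nd4l (log2 change −3.00, adjusted p = 0.0015) still passed.

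Their sequences show how short these genes are and which bases they share with the gene that follows, set in capitals. They are transcripts of GENCODE M21 on GRCm38, both on the + strand of the mitochondrial chromosome. mt-Atp8 lies at chrM:7766-7969, has 204 bases and shares 43 with mt-Atp6 (21.1%). mt-Nd4l lies at chrM:9877-10173, has 297 bases and shares 7 with mt-Nd4 (2.36%). No source used here names the counter or says how it handled fragments that touch both genes of a pair.
mt-Atp8: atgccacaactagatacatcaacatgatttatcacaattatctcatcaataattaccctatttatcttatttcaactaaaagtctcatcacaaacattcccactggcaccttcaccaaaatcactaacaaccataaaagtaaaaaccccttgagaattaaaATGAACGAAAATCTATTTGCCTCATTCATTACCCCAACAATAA
mt-Nd4l: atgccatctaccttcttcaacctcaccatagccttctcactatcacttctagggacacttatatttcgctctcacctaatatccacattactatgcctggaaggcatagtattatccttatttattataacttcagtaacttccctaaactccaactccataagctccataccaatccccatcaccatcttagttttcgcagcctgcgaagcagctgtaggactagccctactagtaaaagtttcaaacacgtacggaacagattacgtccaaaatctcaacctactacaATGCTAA

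Of the other mitochondrial subunits of complex I, mt-Nd1 and mt-Nd2, which lie first in genome order after the rRNAs, fell to day 3. mt-Nd1 was at 59914, 67054 and 59807 normalized counts in the day 1 libraries, 26174, 27103 and 40262 in those of day 3, and 56488, 62898 and 54686 in those of day 5. Day 3 lay below both other days (log2 change −1.02, SE 0.18, adjusted p = 0.00043). mt-Nd2 was at 27394, 30560.2 and 28002 normalized counts in the day 1 libraries, 10754, 11887 and 16820.0 in those of day 3, and 45774, 43047 and 36399 in those of day 5. It fell (log2 change −1.15, SE 0.17, adjusted p = 0.00013) and then rose (log2 change 1.69, SE 0.17, adjusted p = 1.5e-05). Its day 5 level was above that of day 1 (log2 change 0.54, adjusted p = 0.015), which did not pass with quantile normalization (log2 change 0.40, adjusted p = 0.076). mt-Nd3 rose, from 7042, 7598 and 6274 on day 1 to 16499, 14274 and 12633 on day 3 (log2 change 1.05, SE 0.17, adjusted p = 0.00027), and days 3 and 5 overlapped. mt-Nd5 was at 26239 ± 2026, 32723 ± 7706 and 46225 ± 9103 on the 3 days and was higher on day 5 than on day 1 (log2 change 0.80, SE 0.20, adjusted p = 0.0041). From day 1 to day 3 its log2 change was 0.29 (adjusted p = 0.21), which passed without day 3 replicate 3 (log2 change 0.50, adjusted p = 0.033) and was −0.53 with quantile normalization. From day 3 to day 5 it was 0.51 (adjusted p = 0.044). It did not pass without day 1 replicate 1, day 1 replicate 2, day 1 replicate 3, day 3 replicate 2, day 3 replicate 3, day 5 replicate 1 or day 5 replicate 2 (log2 change 0.31 to 0.57, adjusted p = 0.056 to 0.17).

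mt-Nd6 is the one subunit gene on the other strand, opposite the end of mt-Nd5, with which it shares 14 bases. It was at 8935, 9436 and 7834 normalized counts in the day 1 libraries, 29903, 26009 and 19809 in those of day 3, and 28239, 41722 and 40406 in those of day 5. All day 3 and day 5 libraries lay above all of day 1, and the rise to day 3 was the largest of the 13 (log2 change 1.51, SE 0.19, adjusted p = 3.8e-05). By day 5 it was 4.21 times its day 1 mean (log2 change 2.06, SE 0.19, adjusted p = 3.0e-06). The step from day 3 to day 5 (log2 change 0.54, adjusted p = 0.026) rested on overlapping libraries. It did not pass without day 3 replicate 2, day 3 replicate 3, day 5 replicate 2 or day 5 replicate 3 (log2 change 0.38 to 0.57, adjusted p = 0.051 to 0.10). Without strand, reads of mt-Nd6 cannot be told apart from antisense reads of the same place. mt-Cytb, the one mitochondrial subunit of complex III, was at 58593, 66735 and 58318 normalized counts in the day 1 libraries, 36651, 38362 and 55277 in those of day 3, and 131035, 143037 and 120475 in those of day 5. It fell to day 3 (log2 change −0.52, SE 0.19, adjusted p = 0.030) and rose above day 1 by day 5 (log2 change 1.10, SE 0.19, adjusted p = 0.00035). The rise above day 1 did not pass with quantile normalization (log2 change 0.27, adjusted p = 0.30). The fall did not pass without day 1 replicate 1, day 1 replicate 2, day 1 replicate 3, day 3 replicate 1 or day 3 replicate 2 (log2 change −0.55 to −0.41, adjusted p = 0.055 to 0.12). The fall did not pass either once the length and GC trend was taken out (log2 change −0.28, adjusted p = 0.18).

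Day 3 carried a trend with transcript length across all genes, and the nuclear subunits are mostly short. The median change from day 1 to day 3 over all tested genes went from 0.73 for transcripts up to 500 bases and 0.76 for 500 to 750 bases through 0.55 for 1000 to 1500 bases to −0.42 for 3000 to 5000 bases and −0.88 above 5000 bases, with the length of a gene taken as the median of its transcripts in GENCODE M21. Short genes stood higher relative to long ones in every day 3 library than in any other: the median of the shortest 10% minus that of the longest 10% of all tested genes, each gene relative to its mean, was −0.91 to 0.033 on day 1, 0.75 to 1.26 on day 3 and −1.08 to 0.23 on day 5.

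Most nuclear subunits ran above this trend, the short ones most clearly, and they followed it among themselves. Of the 78, 70 changed more than the median of all genes of their own length class. The subunits had medians of 1.90 up to 500 bases, 1.71 from 500 to 750 and 0.93 from 1500 to 2000. Above their class median lay 15 of 15 up to 500 bases, 5 of 8 from 1500 to 2000 and 4 of 6 from 2000 to 3000. From day 3 to day 5, 7 of the 15 up to 500 bases did (subunit median −1.26, all genes −1.22). Of 54 tested nuclear genes with transcripts under 1000 bases, 53 rose and none fell (median 1.74). Of 24 at or above 1000 bases, 17 rose and 3 fell (median 1.06). Over all tested genes of any length, 36.1% rose and 37% fell. The correlation of the change with log2 length was −0.59 over the 78 nuclear genes and −0.22 over 17046 tested genes with a length, as descriptions of genes measured in the same libraries. The 3 that fell, Ndufs1, Uqcrc2 and Sdha, and the 3 of ATP synthase that did not pass all have transcripts of over 1000 bases. Sdhc, at 1993 bases with a log2 change of 1.38, shows that length did not order the genes one by one.

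With the length and GC trend removed by splines in each library, 70 nuclear genes rose and 3 fell to day 3 (background 36.1% and 35.1%), with a median of 1.16 in place of 1.64. From day 3 to day 5, 2 rose and 63 fell (background 31.8% and 35.1%), with a median of −0.55 in place of −1.09. The median of complex I became 1.13, of II 0.12, of III 1.19, of IV 1.23 and of V 1.26. The mitochondrial genes did not follow it: the 3 shortest of them, all up to 500 bases, included the falls of mt-Atp8 and mt-Nd4l and the rise of mt-Nd3.

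**Figure D5:**
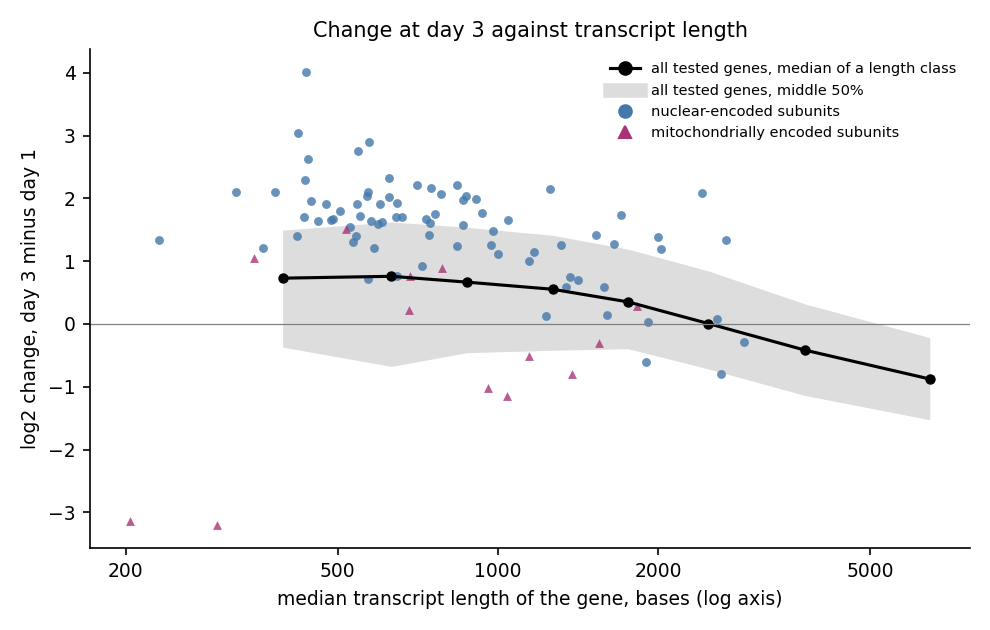
Log2 change from day 1 to day 3 (y axis) against the median transcript length of each gene on a log axis (x). The black line joins the medians of all tested genes in 8 length classes with the middle 50% shaded, circles are nuclear and triangles mitochondrial subunits. Most nuclear subunits lie above the line, while mt-Atp8 and mt-Nd4l, the shortest mitochondrial genes, lie at −3.15 and −3.21.

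Several subunits and carriers have symbols outside the rule. Cox4i1, the common form of the largest nuclear subunit of complex IV, was at 4826, 4741 and 4653 normalized counts in the day 1 libraries, 17067, 16405 and 12095 in those of day 3, and 6062, 9158 and 10546 in those of day 5. Its days did not overlap (log2 change 1.66, SE 0.19, adjusted p = 2.4e-05). Cox4i2, its low-oxygen form, reached at most 2.43. Ndufab1, the acyl carrier subunit of complex I, was at 1076 ± 49.3 on day 1 and 1978 ± 319.6 on day 3, a rise (log2 change 0.86, adjusted p = 0.00018). Ndufa4l2, the hypoxia-linked relative of Ndufa4, was at most 16.8 and at 0 on day 5. Cox7a2l, which links complexes III and IV, was at 2028 ± 10.5, 6617 ± 536 and 5153 ± 998 and was higher on day 5 than on day 1 (log2 change 1.33, SE 0.14, adjusted p = 6.7e-06). Cyc1, the cytochrome subunit of complex III, rose to day 3 (log2 change 0.80, adjusted p = 0.00018), which did not pass once the trend with length and GC was taken out (log2 change 0.090, adjusted p = 0.34).

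Atpif1, the inhibitor that binds ATP synthase when it runs backwards, had a larger change to day 3 than the nuclear median. It was at 927, 809 and 799 normalized counts in the day 1 libraries, 5492, 5010.1 and 3461 in those of day 3, and 1344, 1914 and 2207 in those of day 5. Its days did not overlap. The day 3 mean was 5.51 times that of day 1 (log2 change 2.44, SE 0.20, adjusted p = 2.7e-06) and day 5 stayed above day 1 (log2 change 1.08, adjusted p = 0.00058). Cycs, cytochrome c itself, differed from most nuclear subunits in its step to day 3, as Atp5b did. It was at 4696, 4577 and 4390.2 normalized counts in the day 1 libraries, 5077, 5061 and 4406 in those of day 3, and 1579, 2009.7 and 2202 in those of day 5. Days 1 and 3 overlapped, and all day 5 libraries lay below both (log2 change −1.34, SE 0.12, adjusted p = 7.6e-06 against day 3).

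Genes that make and maintain mitochondrial RNA had medians near or below 0 at day 3. Of 28 genes of mitochondrial DNA and RNA synthesis, 7 rose and 13 fell to day 3 (median −0.079; over all tested genes 36.1% rose and 37% fell), from Slirp, an RNA-stabilising protein, at 2.22 to Pnpt1, an RNA-degrading enzyme, at −1.58. Of 14 tested transcription regulators of mitochondrial genes, 1 rose and 7 fell (median −0.34). Tfam, which packages and transcribes mitochondrial DNA, was at 1022 ± 67.2, 1029 ± 22.1 and 729 ± 49.7 (log2 change 0.012, adjusted p = 0.92 to day 3, log2 change −0.50, adjusted p = 0.00078 to day 5). The step to day 3 was a called fall with scaling to the total (log2 change −0.26, adjusted p = 0.028). Its fall to day 5 did not pass with scaling to the total (log2 change −0.17, adjusted p = 0.13) or with the length and GC trend removed (log2 change −0.12, adjusted p = 0.31). Ppargc1a, a coactivator of mitochondrial genes, was at 125, 29.9 and 160.1 normalized counts in the day 1 libraries, 174, 171 and 177 in those of day 3, and 269, 268 and 206 in those of day 5. It was higher on day 5 than on day 1 (log2 change 1.53, SE 0.49, adjusted p = 0.015), and by 0.79 (adjusted p = 0.0035) without day 1 replicate 2, the lowest of its day. The counts of both mitochondrial rRNAs were lower on day 5 than on day 1. They summed to 13715 to 17061, 6220 to 10492 and 7556 to 8235 on days 1, 3 and 5. That was far below the 13 messengers, at 673888 to 689326, 656994 to 761898 and 1205540 to 1374130. Any part of library preparation in these counts was not tested. Of the rRNAs, mt-Rnr2 was at 8709, 12829 and 9671 normalized counts in the day 1 libraries, 6155, 3386 and 3755 in those of day 3, and 5216, 5278 and 4837 in those of day 5 (log2 change −1.01, SE 0.21, adjusted p = 0.0013 for day 5 against day 1). The other, mt-Rnr1, was at 4716 ± 422, 3432 ± 797 and 2818 ± 426 (log2 change −0.75, adjusted p = 0.0018, and log2 change −0.37, adjusted p = 0.052 with quantile normalization).

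The factors that assemble and import the complexes had smaller medians than the nuclear subunits at day 3, when 36.1% of all tested genes rose and 37% fell. Of 16 complex I assembly factors, 12 rose and 3 fell to day 3 (median 0.70), with Ndufaf3 at 2.10 and Acad9 at −1.58. Of 14 factors for complexes II, III and V, 9 rose and none fell (median 0.74), led by Sdhaf1 at 2.63. Of 22 tested complex IV factors, 14 rose and 4 fell (median 0.80), led by Pet100 at 2.53. Of 25 tested import genes, 12 rose and 5 fell to day 3 (median 0.29). All 25 fell from day 3 to day 5 (median −0.93, background 32.4%), led by Hspe1, a matrix chaperonin subunit, at −1.72. On day 5, 18 were lower than on day 1 and 3 higher (median −0.89, background 37.7% and 36.7%), led by Hspd1, the partner of Hspe1, at −2.44.

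The TCA cycle list was called at day 3 in shares close to those of all tested genes, of which 36.1% rose and 37% fell. Of 19 genes of the TCA cycle, which supplies NADH and succinate, 8 rose and 7 fell to day 3 (median 0.0065), with Mdh2 at 0.87 and Pdha1 at −1.35. Of 13 genes of coenzyme Q synthesis, 10 rose and 2 fell (median 0.85). With the length and GC trend removed, 8 rose and 3 fell (median 0.28). Coq8a had the largest rise, at 5.07, and was 6.18 above day 1 on day 5. Of 10 tested carriers and uncoupling proteins, 5 rose and 1 fell (median 0.13), led by Ucp2 at 2.40. With that trend removed, 4 rose and 4 fell (median −0.14).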

How the data were processed

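RNA was measured in 9 libraries of wild-type mouse airway basal cells, 3 each on days 1, 3 and 5. Per the submitters' processing notes, HISAT2 2.1.0 served for alignment, GRCm39 was the genome build and DESeq2 1.36.0 was among the tools. No source used here names the counter, annotation release or strand setting. The deposited values are on a log2 scale without a pseudocount: each is a count over the size factor of its library, per the file headers and values, and genes with 0 reads hold an error text that was read as 0. Whole reads could be read back from the low values (100% of values within 0.01 read), which gave the depth. Repeats of a gene, 359 lines with identical values, were left out.

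Values were returned to the normalized scale, 1 was added and log2 taken. The 17338 genes that reached 10 normalized counts in 3 or more of 9 libraries were fitted with limma 3.58.1 in R 4.3.3 (1 mean per day, trended empirical Bayes, 6 residual degrees of freedom, Benjamini-Hochberg threshold 0.05), and the code was tested on simulated data. On the reads read back, limma's voom weights were the alternative, and no count model was run. Transcript lengths, GC content and overlaps came from GENCODE M21 (GRCm38) by gene identifier, while the authors' build was GRCm39, so no coordinate of theirs was used.

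The text names all mitochondrial subunits, complex II, and the nuclear gene of each complex with the highest mean normalized count. It also names the 3 largest rises and falls per comparison among nuclear genes with a mean of at least 100 on 1 day. Isoforms and related genes listed by name follow, and at most the largest rise and fall of each wider list. Motif letters were shortened to 7 after longer versions had been searched. The members and lists were chosen with earlier results of these data known. Alternatives were a pseudocount of 0.5 or 8, no filter, a filter at 100, the deposited log2 values, quantile normalization, scaling to the total, removal of the length and GC trend (splines with 5 degrees of freedom), voom weights, only the days compared, a replicate block and leaving out each library.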

Additional observations from a re-analysis of the deposited data

How the results depend on the processing

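Counts of called genes stayed within 1.5 times the main count for every comparison and setting, and the median of the nuclear genes kept its sign in all of them. With 1 library left out, called members numbered 84 to 89 for day 3 against day 1, 79 to 89 for day 5 against day 3, 46 to 72 for day 5 against day 1 and 84 to 92 for day 3 against the mean of days 1 and 5. Nuclear medians then ranged over 1.54 to 1.79, −1.24 to −0.87, 0.28 to 0.66 and 1.25 to 1.50. Mitochondrial medians ranged over −0.46 to −0.21, 0.81 to 1.12, 0.81 to 0.99 and −0.89 to −0.64, in the same order. Scaling to the total moved the median of all tested genes from 0.0034 to −0.24 at day 3 against day 1, from 0.055 to 0.38 at day 5 against day 3 and from −0.056 to 0.0084 at day 5 against day 1. It gave nuclear medians of 1.37 for day 3 against day 1 and 1.06 for day 3 against the mean of days 1 and 5, and mitochondrial medians of −0.58 for day 3 against day 1, 1.26 for day 5 against day 3 and −1.04 for day 3 against the mean of days 1 and 5. Quantile normalization gave mitochondrial medians of −1.13, 1.21, 0.27 and −1.13 for the 4 comparisons. Removing the length and GC trend gave nuclear medians of 1.16 for day 3 against day 1, −0.55 for day 5 against day 3 and 0.83 for day 3 against the mean of days 1 and 5, and mitochondrial medians of −0.033 for day 3 against day 1, 1.34 for day 5 against day 1 and −0.50 for day 3 against the mean of days 1 and 5. Some log2 changes turned in sign. With quantile normalization, for day 3 against day 1 these were mt-Co2 −0.16, mt-Atp6 −0.75, mt-Nd5 −0.53, Atp5b −0.72. For day 5 against day 3 these were mt-Nd3 0.46, Atp5b 0.25, Cox7a2l 0.060, mt-Rnr1 0.12. For day 5 against day 1 these were mt-Co2 −0.14, mt-Atp6 −0.13, Sdha 0.33, Uqcrc2 0.16, Sdhd 0.16, Atp5g1 0.32, Atp5g3 0.31, Cyc1 0.21. With scaling to the total, for day 3 against day 1 these were mt-Atp6 −0.049, Atp5b −0.23, Sdhd −0.15, Cycs −0.18, Tfam −0.26. For day 5 against day 3 these were mt-Nd3 0.22, mt-Rnr1 0.062. For day 5 against day 1 these were Atp5g1 0.041, Atp5g3 0.015. With the trend of length and GC taken out, for day 3 against day 1 these were Atp5b −0.22, Sdhd −0.15, Tfam −0.010. For day 5 against day 3 these were mt-Nd3 0.30, Sdha −0.075, Ndufs1 −0.059, Ndufa6 0.33, Cox7a1 0.31, Cox8a 0.12, mt-Rnr2 −0.17. For day 5 against day 1 these were mt-Nd1 0.25, mt-Nd4l 0.21, Uqcrc1 −0.42, Sdhb −0.083, Atp5g3 0.14. Values that turned when 1 library was left out are given as ranges over the 9 omissions: mt-Co2 at day 5 against day 3 −0.00070 to 0.26, mt-Nd3 at day 5 against day 3 −0.25 to 0.082, Ndufs6 at day 5 against day 1 −0.12 to 0.37, Atp5k at day 5 against day 1 −0.029 to 0.46, Cox7a2 at day 5 against day 1 −0.084 to 0.38, Atp5g1 at day 5 against day 1 −0.23 to 0.22, Atp5g3 at day 5 against day 1 −0.18 to 0.14, Tfam at day 3 against day 1 −0.042 to 0.051. The cause was not tested. Of 144 values of named genes, the pseudocount of 0.5 and the deposited log2 values changed no call, voom weights and a pseudocount of 8 each added 1, and fitting only the days compared ended 7 calls. Same replicate numbers had correlations of deviations of −0.31 to 0.14, which gave no pairing of the libraries. With the replicate number as a block, 140 of 144 kept their call and 4 lost it, which were mt-Cytb at day 3 against day 1 (limma adjusted p = 0.057) and mt-Co3, Sdha and Cox7a2l at day 5 against day 3 (adjusted p = 0.055, 0.074 and 0.050). With that block, 85 members were called at day 3 against day 1. Depth limits the precision of isoforms with few reads, such as Cox6a2, Cox8b and Cox4i2.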
